A study of Mus musculus with 6 samples.

Results

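The transcripts described here are those of 10 integrin subunits, the chains of the cell surface receptors through which cells hold on to the extracellular matrix, in PA6 cells, a mouse bone marrow stromal cell line. Members were all probes whose gene symbol on the array was ITGA1, ITGA2, ITGA3, ITGA5, ITGA6, ITGA11, ITGAV, ITGB1, ITGB3 or ITGB5. This gave 21 probes for the 10 genes, out of 45281 probes and 30854 gene names. A probe was taken as detected on an array at a detection p under 0.05, and the probes kept for testing were those detected on both arrays of any group. By this rule 10 of the 21 probes were retained, which left 6 of the 10 members to test (ITGA1, ITGA5, ITGA11, ITGAV, ITGB1 and ITGB5), among 11872 genes tested in all.

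Pure PA6 monolayers were kept for 3 h in serum-free medium, either without added growth factors (-GFs), with 20 ng/ml FGF2 or with 10 ng/ml BMP4 (doses of the sample labels; the methods on co-cultures give a lower BMP4 dose). Each group had 2 replicates, and 1 array was hybridised per replicate, 6 arrays in all. According to the labels, a biological replicate was made of 1 untreated well, 1 well with FGF2 and 1 well with BMP4, so that arrays with the same replicate number belong together. The median intensity lay between 153.4 and 168.1 on the 6 arrays, and between 34.3% and 36.3% of the probes were detected on each. All groups come from the same cell line in monoculture, at a single time point.

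Integrins are heterodimers of an alpha and a beta chain, and the pair decides which matrix protein is bound. The α5 chain pairs with β1 into the main fibronectin receptor, αv chains pair with several beta chains into receptors of vitronectin, fibronectin and other RGD-containing proteins, α1, α2 and α11 pair with β1 into collagen receptors, and α3 and α6 bind laminins. In stromal cells these receptors anchor the cell to the matrix it lays down and take part in signalling from adhesion sites together with growth factor receptors.

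The groups were first checked on genes known to answer to each factor. EGR1, an immediate early transcription factor, was at log2 intensities of 10.02 and 10.34 in -GFs, 14.37 and 14.37 with FGF2, and 9.59 and 10.76 with BMP4. DUSP6, the phosphatase that turns off ERK, rose with FGF2 by 3.55 ± 0.25 on the log2 scale (estimate ± standard error, adjusted p = 0.00305). ID1, a target of BMP-activated SMADs, rose with BMP4 by 2.77 ± 0.16 (adjusted p = 0.00941). The value of ID1 stayed between 2.69 and 2.98 in all alternatives, but its call was lost when either -GFs array was left out (adjusted p = 0.117 for the first and 0.115 for the second), and when the first BMP4 array was (0.111). Of the 6 listed response genes 5 were tested, SPRY2 being detected on no array. EGR1 and DUSP6 passed with FGF2 and ID1 with BMP4. With the replicate number as a block, ID1 was also higher (0.37, adjusted p = 0.0613) and ID3 lower (-0.38, 0.074) with FGF2, and ID2 and ID3 passed with BMP4 in addition, though not with neqc and the block. The ID1 call with FGF2 was lost with neqc (adjusted p = 0.146) or median scaling (0.19) in the model with the block. Both FGF2 arrays thus lay above all others for EGR1 and DUSP6, and both BMP4 arrays for ID1.

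Markers were read in the same way to check the cell type. All 11 stromal markers were detected on every array (COL1A1, COL1A2, COL3A1, PDGFRA, PDGFRB, THY1, VIM, CXCL12, FAP, LUM and DCN). Of the 11 blood cell markers on the array 6 were detected on no array, PTPRC and CD68 among them, and CD14 and ITGA2B were detected on every array. Of 7 endothelial markers 5 were detected on no array, including PECAM1 and CDH5, and TEK was detected on every array. Epithelial markers were detected on no array for 5 of 6 genes, with CDH1 detected on every array, and ES cell markers for 3 of 5, with POU5F1 detected on every array. No marker of these 5 lists passed an adjusted p of 0.1 with FGF2 or BMP4 in limma, where 1 stromal marker had an unadjusted p under 0.05 with FGF2 (23.3% of all genes did). With the replicate number as a block, 4 of the 11 stromal markers (1 higher, 3 lower) and the blood cell markers ITGAL (higher, and detected on both arrays of FGF2 only) and ITGA2B (lower), themselves integrin chains, passed with FGF2 and none with BMP4, where 37.7% and 0.219% of all genes did. This depended on the normalisation: with the block, 0 stromal markers were higher and 6 lower with FGF2 after median scaling (37.5% of all genes passed), and none passed after neqc (32.1%), with a median log2 fold change over the 11 of -0.24 with the spline, -0.35 and -0.25. With the spline and no block, this median was 0.05 without FGF2 replicate 1 and -0.41 without FGF2 replicate 2, so its sign depended on 1 array. The part of these marker changes in the integrin values was not tested.

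ITGA5, the alpha chain of the fibronectin receptor, rose with FGF2 and did not pass with BMP4. Its first probe had intensities of 1196.6 and 1457 in -GFs, of 6197.1 and 8173.1 with FGF2, and of 932 and 1131.1 with BMP4. Both FGF2 arrays lay far above the other 4, and the BMP4 arrays lay just below the -GFs arrays, with which they overlapped once normalised. On the normalised log2 scale the mean was 10.3 ± 0.39 (SD, n = 2) in -GFs, 12.84 ± 0.29 with FGF2 and 10.05 ± 0.11 with BMP4. The second probe of ITGA5 had intensities of 453.6 and 467.7 in -GFs, 2031.1 and 2732.5 with FGF2, and 354.2 and 393.3 with BMP4. Both probes therefore put the FGF2 arrays highest.

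**Figure D1:**
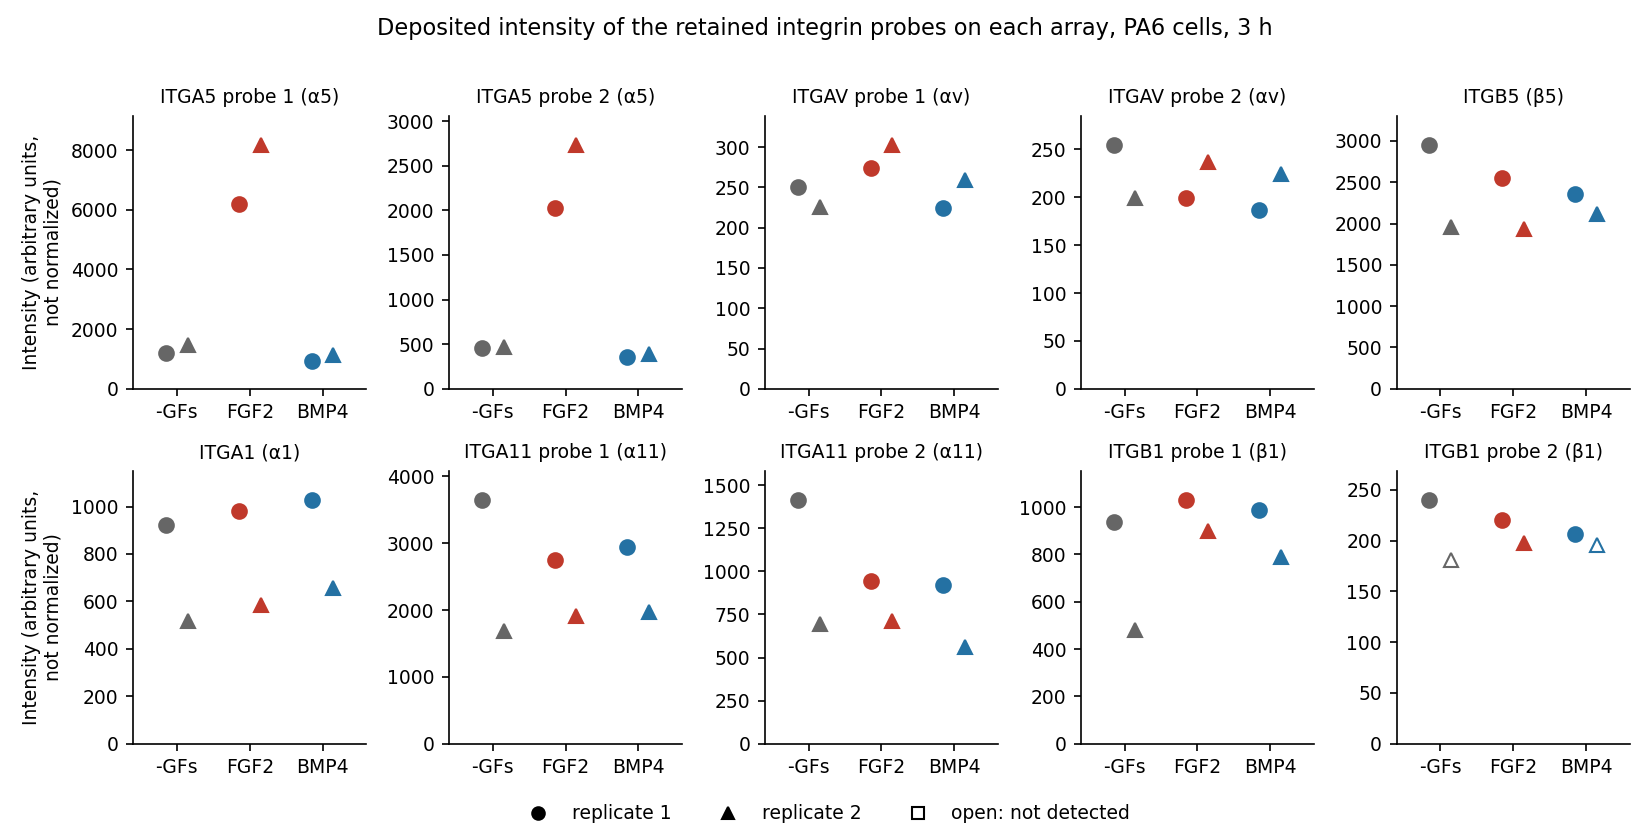
Deposited intensity (arbitrary units, not normalized between arrays, linear axis from 0) of the 10 retained integrin probes in -GFs, FGF2 and BMP4 cultures of PA6 cells; circles are replicate 1, triangles replicate 2, and open symbols arrays where the probe was not detected. Both ITGA5 probes stand out on the FGF2 arrays (6197.1 and 8173.1 for the first), while for ITGA1 and ITGA11 the triangles lie below the circles in every group.

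FGF2 raised ITGA5 by 2.54 ± 0.23 on the log2 scale (standard error, adjusted p = 0.00546), 5.81-fold with a 95% interval from 3.95 to 8.54. The gain was 2.61 in replicate 1 and 2.47 in replicate 2. The second probe gave 2.43 ± 0.21 in the model over all probes (adjusted p = 0.00497). By size of the log2 fold change ITGA5 ranked 14 among the 11872 genes. With BMP4 the log2 fold change of ITGA5 was -0.26 ± 0.23 (adjusted p = 0.999), -0.06 in replicate 1 and -0.45 in replicate 2. The direct comparison of FGF2 with BMP4 gave 2.79 ± 0.23 (adjusted p = 0.00402). In bulk cultures, more cells with the transcript and more transcript per cell cannot be told apart.

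ITGA5 was the only member past an adjusted p of 0.1 with FGF2, 1 of the 6 tested, while 11.8% of all genes tested passed. It was also the only member past a log2 fold change of 1 at that adjusted p, where 3.53% of all genes did so. When the replicate number was added to the model as a block, 3 of 6 members passed, ITGB1 and ITGAV in addition, against 37.7% of all genes, and 2 of 6 with median scaling and the block (37.5% of all genes), where ITGAV was lost. Over single probes, 2 of the 10 retained member probes passed without the block (both of ITGA5, against 10.5% of all probes) and 4 with it (against 36.5%). Between FGF2 and BMP4 it was again ITGA5 alone, 1 of 6, against 9.06% of all genes without the block and 34.1% with it. With BMP4 against -GFs no member passed, where 0.00842% of all genes did, and none with the block either, against 0.219%. At an unadjusted p under 0.05 limma gave 0 members with BMP4 (1.81% of all genes) and, with the block, 2 of 6, ITGA1 and ITGB1 (7.02% of all genes).

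The promoter of ITGA5, the member that passed with FGF2 in both models and in all alternatives, is shown first, followed by that of ITGB1, its partner chain, and of ITGA11, a collagen receptor chain whose log2 fold change with FGF2 was -0.02. The sequences are those of RefSeq on GRCm38.p6, from 250 bases before to 50 bases after the start of the gene, on the strand of the gene, and 8 of the 10 members had an entry. They lie at chr15:103366742-103367041 (minus strand, ITGA5), chr8:128685404-128685703 (plus strand, ITGB1) and chr9:62677605-62677904 (plus strand, ITGA11). Capitals mark the letters of 6 motifs looked for on both strands: AP-1 (TGANTCA), EGR1 (GCGNGGGCG), ETS (CCGGAA), SP1 (GGGCGG), TEAD (GGAATG) and the CArG box of SRF.
ITGA5: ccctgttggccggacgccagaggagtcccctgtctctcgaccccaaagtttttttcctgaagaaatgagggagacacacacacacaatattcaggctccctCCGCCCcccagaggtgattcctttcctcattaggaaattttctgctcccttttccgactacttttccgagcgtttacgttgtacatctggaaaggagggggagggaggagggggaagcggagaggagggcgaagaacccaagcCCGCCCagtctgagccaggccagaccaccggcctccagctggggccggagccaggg
ITGB1: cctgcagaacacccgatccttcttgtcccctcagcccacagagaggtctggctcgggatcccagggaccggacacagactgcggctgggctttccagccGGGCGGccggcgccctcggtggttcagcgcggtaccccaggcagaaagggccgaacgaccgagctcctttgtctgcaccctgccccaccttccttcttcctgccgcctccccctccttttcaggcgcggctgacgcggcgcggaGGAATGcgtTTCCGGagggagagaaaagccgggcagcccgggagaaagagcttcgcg
ITGA11: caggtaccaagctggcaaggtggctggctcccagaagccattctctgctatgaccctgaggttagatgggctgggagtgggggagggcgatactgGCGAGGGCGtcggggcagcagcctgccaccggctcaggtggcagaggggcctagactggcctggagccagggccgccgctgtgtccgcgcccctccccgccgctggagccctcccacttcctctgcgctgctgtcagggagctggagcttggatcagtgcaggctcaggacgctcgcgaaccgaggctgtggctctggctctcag

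The ITGA5 window held 2 matches to the SP1 letters and none to the other 5 motifs. In the ITGB1 window there was 1 match each to SP1, TEAD and ETS, and in the ITGA11 window 1 match to EGR1. Such letters are common in promoters: of 32851 windows of the same length, 35.7% held the SP1 letters, 14.9% ETS, 14.7% TEAD, 7.81% AP-1, 5.55% EGR1 and 1.63% the CArG box. The EGR1 and SP1 letters can overlap each other. These are matches of letters only, in a window of 300 bases.

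Other receptors of RGD-containing proteins showed smaller values. The first probe of ITGAV, the αv chain, had intensities of 251.2 and 226 in -GFs, 274.2 and 302.8 with FGF2, and 225.1 and 259.5 with BMP4. Both FGF2 arrays were above all others, and -GFs and BMP4 overlapped. The log2 fold change with FGF2 was 0.34 ± 0.15 (adjusted p = 0.241; 0.0721 with the replicate block). With median scaling and the block it was 0.27 and did not pass (adjusted p = 0.187). With neqc it was 0.68, which passed with the block (adjusted p = 0.0364) and not without it (0.157). The second ITGAV probe, with 254.7 and 198.9 in -GFs against 199.1 and 236.4 with FGF2, overlapped between the groups, and its log2 fold change was 0.01 ± 0.17. The ITGAV value thus depended on the probe, and the mean of the retained probes gave 0.17 (adjusted p = 0.542). The remaining 2 ITGAV probes were detected on no array.

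ITGB5, which joins αv in a vitronectin receptor, had intensities of 2951 and 1954.9 in -GFs, 2547.6 and 1935.4 with FGF2, and 2361.6 and 2115.9 with BMP4. All 3 groups overlapped, with replicate 1 above replicate 2 in each. The log2 fold change was -0.03 ± 0.21 with FGF2 (95% interval from -0.52 to 0.46) and 0 ± 0.21 with BMP4 (from -0.49 to 0.49), and neither passed. ITGB3, the other vitronectin receptor chain paired with αv, had a single probe, with intensities from 159.3 to 185.1, that was detected on no array.

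**Figure D2:**
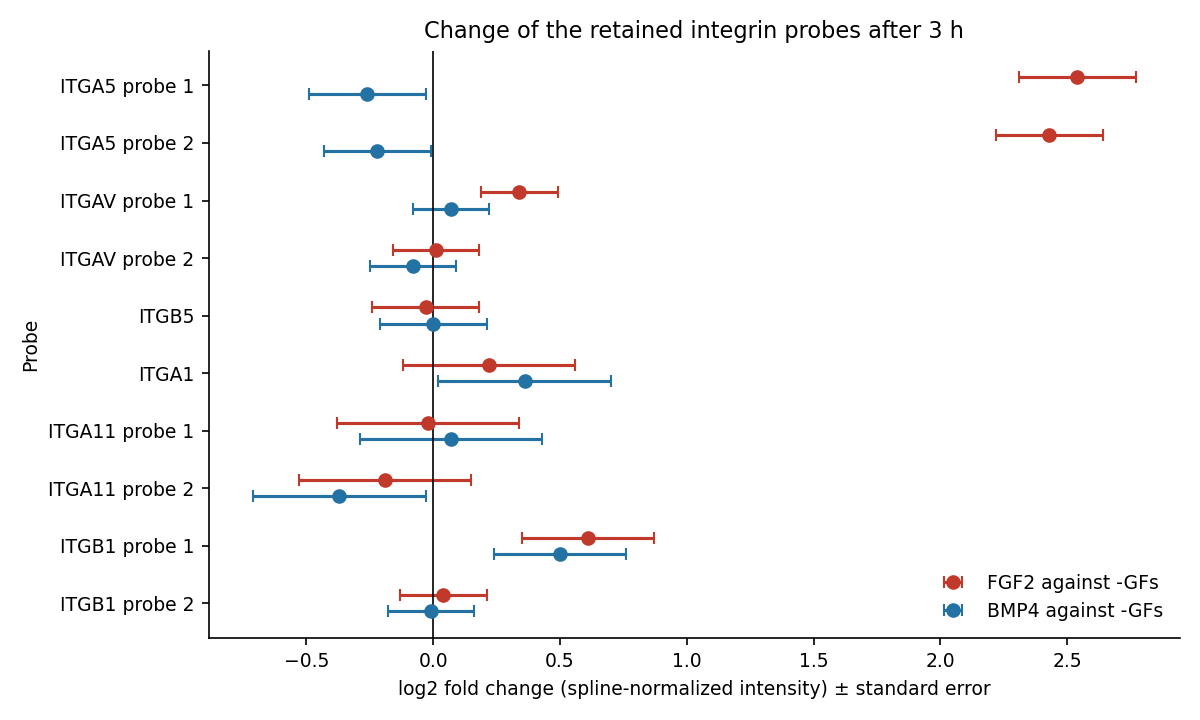
Log2 fold change of each retained integrin probe after 3 h, FGF2 against -GFs in red and BMP4 against -GFs in blue; points are limma estimates from 2 arrays per group on spline-normalized intensity and bars are ± 1 standard error. The ITGA5 probes lie at 2.54 and 2.43 with FGF2, and all other estimates lie between -0.37 and 0.61.

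Among collagen receptor chains, ITGA1 had intensities of 921.5 and 517.4 in -GFs, 979.3 and 583.7 with FGF2, and 1028.2 and 656.3 with BMP4. Within each replicate the order was -GFs, FGF2, BMP4 from low to high, but the replicates differed by more than the treatments and the groups overlapped. The log2 fold change was 0.22 ± 0.34 with FGF2 (adjusted p = 0.74) and 0.36 ± 0.34 with BMP4 (adjusted p = 0.999). Its second probe was detected on 1 array, that of BMP4 replicate 1, and was not retained.

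ITGA11, the collagen receptor chain of fibroblastic cells, had intensities of 3649.1 and 1687.2 in -GFs, 2744.5 and 1916.4 with FGF2, and 2945.6 and 1976.4 with BMP4 on its first probe. On the second probe they were 1415.5 and 697.1, 944.2 and 712.3, and 923.3 and 561.7, in the same order. On both probes replicate 1 was above replicate 2 in every group, and the groups overlapped. The first probe had a log2 fold change of -0.02 ± 0.37 with FGF2 and 0.07 ± 0.37 with BMP4, and the second of -0.19 ± 0.34 and -0.37 ± 0.34. None passed, and for BMP4 the sign differed between the probes. ITGA2, the remaining collagen receptor alpha chain among the members, had 1 probe, with intensities from 116.7 to 155.7, detected on no array.

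The laminin receptor alpha chains among the members, α3 and α6, were detected on few arrays or none. ITGA3 had 1 probe, between 125.9 and 184.2, which was detected on no array. Of the 4 probes of ITGA6, 1 was detected on 2 arrays, FGF2 replicate 2 and BMP4 replicate 1, with intensities from 148.4 to 197 over the 6 arrays, and the other 3 on none. No group had ITGA6 detected on both of its arrays, so that no fold change is given. The 11 member probes that were not retained had intensities between 114 and 197 throughout.

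ITGB1, the common beta chain that pairs with α1, α2, α3, α5, α6, α11 and αv, had intensities of 936 and 478.5 in -GFs, 1030.7 and 899.4 with FGF2, and 986.7 and 789.9 with BMP4. The -GFs replicate 2 array was the lowest of all, and after normalisation both FGF2 arrays (log2 of 10.01 and 9.87) lay above both -GFs arrays (9.66 and 9). The log2 fold change with FGF2 was 0.61 ± 0.26 (adjusted p = 0.218), 0.34 in replicate 1 and 0.87 in replicate 2. With the replicate block the same estimate had a standard error of 0.15 and passed (adjusted p = 0.00518). The value leaned on the -GFs arrays: it was 0.28 without -GFs replicate 2 and 0.94 without -GFs replicate 1, and passed in neither case. With BMP4 it was 0.5 ± 0.26 (adjusted p = 0.999; 0.327 with the block), 0.38 and 0.61 in the replicates, and between FGF2 and BMP4 it was 0.11 ± 0.26 (adjusted p = 0.854). The second ITGB1 probe, detected on 4 of 6 arrays, gave 0.04 ± 0.17 with FGF2 and -0.01 ± 0.17 with BMP4. Its intensities, from 181.2 to 240.2, were near those of the probes not retained. It was kept only through FGF2, the only group where it was detected on both arrays. Probes near background understate changes, so that its values do not decide on those of the first probe. The ITGB1 value thus rested on the first probe, and the mean of both probes gave 0.32 (adjusted p = 0.384).

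Replicate 1 and replicate 2 differed in the same direction in each treatment for most members, a comparison made after the values had been seen. ITGA1 was lower in replicate 2 than in replicate 1 by a log2 difference of -0.54 in -GFs, -0.66 with FGF2 and -0.76 with BMP4. For ITGA11 the differences were -0.87, -0.46 and -0.78, for ITGB1 -0.66, -0.14 and -0.44, and for ITGB5 -0.32, -0.33 and -0.35. ITGA5 went the other way, with 0.55, 0.41 and 0.16, and ITGAV was at 0.04, 0.22 and 0.13. These values are of the first probe of each member, and the second ITGAV probe gave -0.17, 0.28 and 0.16. In the model with the replicate block, 5 of 6 members passed for replicate 2 against replicate 1, ITGA11 (-0.7, adjusted p = 0.000376), ITGA1 (-0.65, 0.000485), ITGB1 (-0.41, 0.0217), ITGA5 (0.37, 0.0308) and ITGB5 (-0.33, 0.0402), while 28.8% of all genes did. With neqc normalisation 2 of 6 passed, against 21.2% of all genes, and the calls of ITGA5, ITGB1 and ITGB5 were lost. With 2 replicates, a difference between them has no replicate of its own beyond the 3 treatments.

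**Figure D3:**
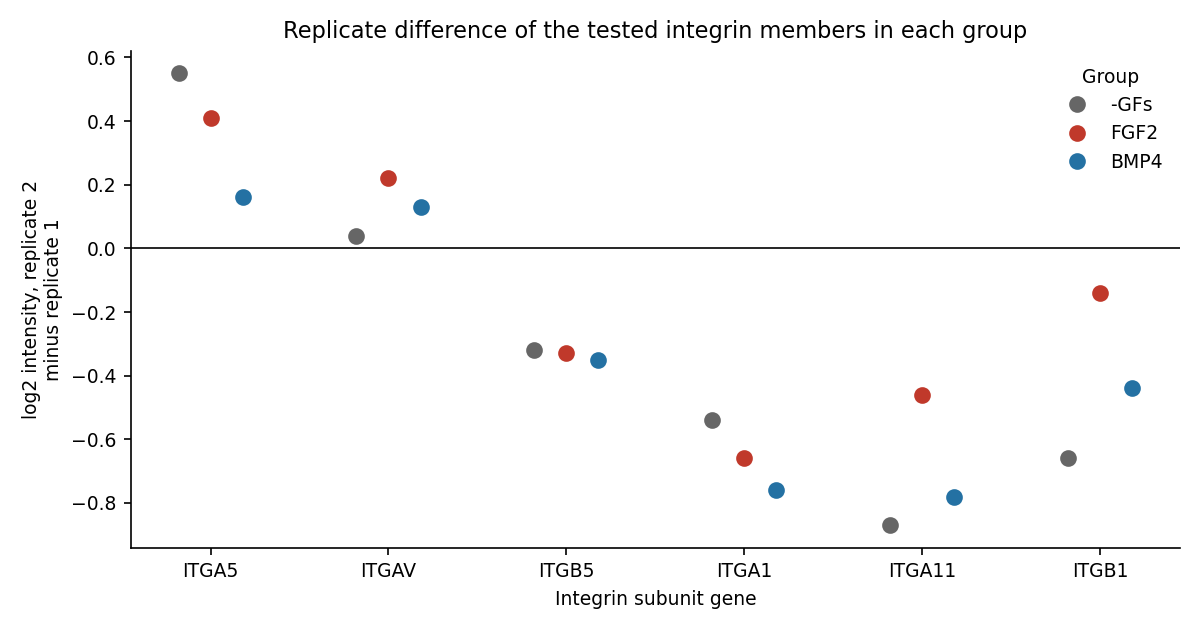
Log2 intensity (spline-normalized) in replicate 2 minus replicate 1 for the 6 tested integrin members, 1 point for each of -GFs (grey), FGF2 (red) and BMP4 (blue). All 3 points lie below 0 for ITGB5, ITGA1, ITGA11 and ITGB1, and above 0 for ITGA5 and ITGAV, each on its first probe.

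Of the 16 other integrin subunits on the array, 7 were tested and none passed with FGF2 without the block (1 had an unadjusted p under 0.05, where 23.3% of all genes did) nor with BMP4 with or without it. ITGA9, printed on the array as 6720458D17RIK and a partner of β1, had log2 intensities of 10.01 and 10.01 in -GFs, 9.48 and 9.59 with FGF2, and 10.19 and 10.24 with BMP4. Both FGF2 arrays were the lowest, at a log2 fold change of -0.47 ± 0.14 against -GFs (adjusted p = 0.103; 0.0145 with the block) and -0.68 ± 0.14 against BMP4 (adjusted p = 0.0465). The first value lay beside the threshold and passed with median scaling (-0.56, adjusted p = 0.0791). With no detection filter (0.0939) and in the setting with the mean of probes (0.0886) it passed at the same -0.47. In these 2 settings only the adjusted p moved, so that they are no further measurement. The adjusted p ranged from 0.0074 to 0.16 in the alternatives with all arrays. Leaving out 1 array moved the log2 fold change between -0.53 and -0.42. With the block, ITGA9 and 4 more passed with FGF2, where 37.7% of all genes did: ITGA2B, the platelet fibrinogen receptor chain (-0.52, adjusted p = 0.0456), ITGB4, the partner of α6 in hemidesmosomes (-0.38, 0.0452), ITGAE (-0.34, 0.0693) and ITGAL (0.39, 0.0409), the last 2 being chains of leukocyte integrins. With neqc and the block ITGA2B no longer passed (-0.76, adjusted p = 0.162). The ITGB4 value was -0.24 without -GFs replicate 2 and -0.51 without -GFs replicate 1. ITGAE was not detected on either FGF2 array and ITGAL on neither -GFs array, which leaves bounds of at least 1.18-fold lower and at least 1.2-fold higher with FGF2. As FGF2 was the only group with ITGAL detected on both arrays, it entered the test through the group where it was highest, and its call is not independent of the filter. ITGA10 (0.27) and ITGAD (-0.04) passed in neither model.

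Of the 9 subunits not tested, ITGA4 and ITGB2 were detected on 1 array, and ITGA7, ITGA8, ITGAM, ITGAX, ITGB6, ITGB7 and ITGB8 on none. The median log2 fold change with FGF2 was -0.34 over the 7 other subunits, 0.28 over the 6 members and -0.02 over all genes tested. With median scaling in place of the spline these medians were -0.39, 0.2 and -0.1, and with neqc the first 2 were -0.54 and 0.47. Leaving out 1 array moved the median of the members between 0.12 and 0.45 and that of the other subunits between -0.36 and -0.24.

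The matrix proteins that integrins bind were measured on the same arrays. The lists here and in the next paragraphs were chosen with earlier results of these data known. Their shares beside all genes are therefore descriptions only. Of 39 listed ligands 38 were on the array and 28 were tested; 6 rose with FGF2 and none fell, 21.4% of those tested, beside the 11.8% of all genes. With median scaling 3 were called higher and 1 lower (11.9% of all genes passed), and with neqc 4 and 0 (9.38%). SPP1 (osteopontin), an RGD protein bound by αv integrins, had log2 intensities of 8.07 and 7.9 in -GFs, 12.14 and 10.74 with FGF2, and 7.77 and 7.47 with BMP4. The FGF2 arrays were far above the rest, and the log2 fold change was 3.45 ± 0.41 (adjusted p = 0.01). THBS1 (thrombospondin) rose from 7.68 and 7.79 to 9.3 and 9.29, by 1.56 ± 0.14 (adjusted p = 0.00525). CYR61, a matricellular ligand of αv and α6 integrins, was detected on neither -GFs array and on both FGF2 arrays, at least 2.13-fold higher with FGF2 (adjusted p = 0.0178). It was retained only through the FGF2 arrays, and passed as well with no detection filter (adjusted p = 0.0104). The bound is that of a single probe. As the mean of the retained CYR61 probes the log2 fold change with FGF2 was 0.9 (adjusted p = 0.0216). CTGF, of the same family, had a log2 fold change of 1.57 ± 0.38 with FGF2 (adjusted p = 0.0621) and of 1.11 ± 0.38 with BMP4 (adjusted p = 0.999; 0.0255 with the block), the only ligand to pass with BMP4, and not with neqc and the block (1.43, adjusted p = 0.505). The CTGF value with BMP4 was 0.66 without -GFs replicate 2 and 1.56 without -GFs replicate 1. TGFBI, an integrin-binding protein of the matrix, and LAMC1, the common laminin γ chain, each had 0.58 ± 0.17 with FGF2 (adjusted p = 0.0971 and 0.0937). FN1, the fibronectin bound by α5β1, had -0.18 ± 0.21 with FGF2 (adjusted p = 0.656).

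SPP1 and THBS1 passed in every alternative in which they were tested, with log2 fold changes from 2.75 (without FGF2 replicate 1) to 4.43 (neqc) for SPP1 and from 1.51 to 2.6 (neqc) for THBS1. CYR61 lost its call without either FGF2 array (adjusted p = 0.109 without replicate 1 and 0.163 without replicate 2). CTGF lost it without FGF2 replicate 1 (0.272), FGF2 replicate 2 (0.132) or -GFs replicate 2 (0.192) and with median scaling, while TGFBI and LAMC1 lost it without any one of the arrays, with neqc (0.165 and 0.162), with median scaling (0.164 and 0.121) and as the mean of their probes (0.256 and 0.117). With the block, 8 ligands were higher and 3 lower with FGF2, 39.3% of those tested (37.7% of all genes), while median scaling with the block gave 7 and 6 (37.5% of all genes), and neqc with the block 8 and 3 (32.1%). The median over the 28 was 0.05, or -0.06 with median scaling, and from -0.02 to 0.27 when 1 array was left out.

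**Figure D4:**
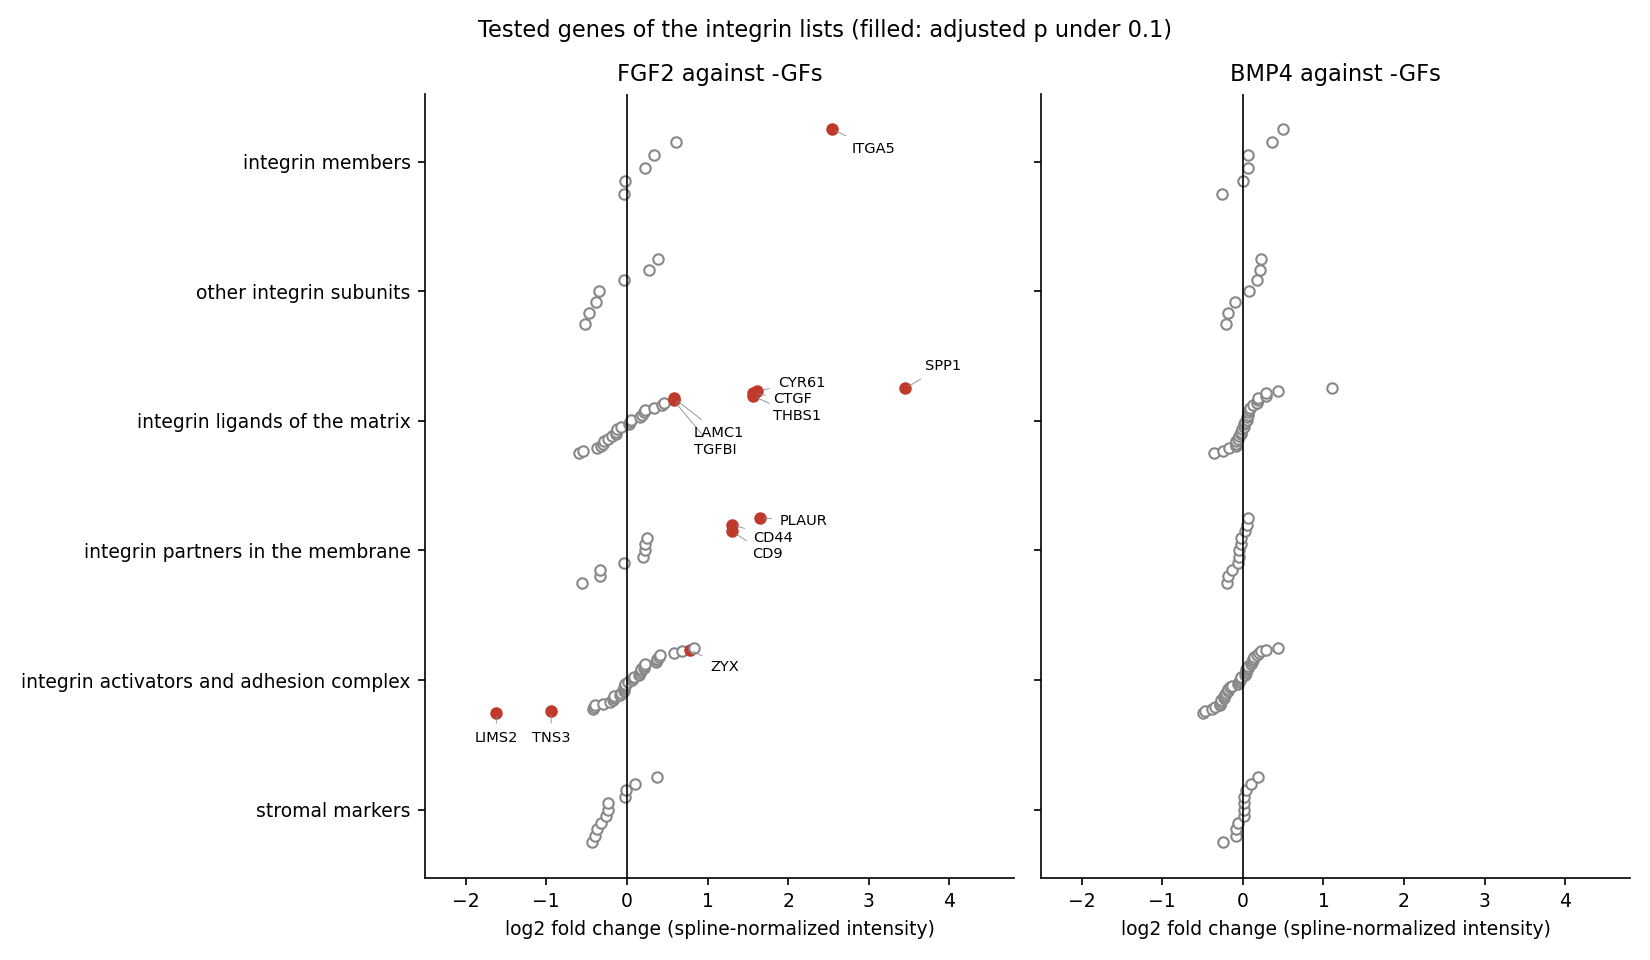
Log2 fold change (spline-normalized intensity, limma without block) of every tested gene of the integrin members, the other integrin subunits, their matrix ligands, membrane partners and adhesion complex, and the stromal markers, for FGF2 (left) and BMP4 (right) against -GFs; 1 point per gene, spread upwards by rank within its list. Filled red points passed an adjusted p of 0.1 and are named: 13 with FGF2, ITGA5 at 2.54 and SPP1 at 3.45 among them, and none with BMP4.

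Of 12 membrane proteins that associate with integrins, 11 were tested, and 3 rose with FGF2 and none fell, beside 11.8% of all genes. PLAUR, the urokinase receptor, was at log2 intensities of 7.85 and 7.9 in -GFs, 9.15 and 9.89 with FGF2, and 7.75 and 7.86 with BMP4, a log2 fold change of 1.65 ± 0.24 with FGF2 (adjusted p = 0.017). CD44, the hyaluronan receptor, rose by 1.31 ± 0.19 (adjusted p = 0.0162) and CD9, a tetraspanin that sits beside β1 integrins, by 1.3 ± 0.18 (adjusted p = 0.0147). For these 3 genes the FGF2 arrays did not overlap with the others. PLAUR passed in every alternative run, and CD44 and CD9 missed the threshold without FGF2 replicate 2 (adjusted p = 0.151 and 0.15). With the block 3 were higher and 3 lower, 54.5% of those tested, against 37.7% of all genes, and with neqc and the block 3 and 2 (32.1% of all genes).

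Inside the cell, integrin tails are bound by talins and kindlins and linked to actin by an adhesion complex. Of 44 listed genes 37 were tested, and 1 rose and 2 fell with FGF2, 8.11% of those tested, beside 11.8% of all genes. ZYX (zyxin), a protein of mature adhesions and stress fibres, was at log2 intensities of 14.83 and 14.75 in -GFs and 15.55 and 15.6 with FGF2, a rise of 0.78 ± 0.14 (adjusted p = 0.0292). LIMS2 (PINCH-2), part of the complex with integrin-linked kinase, fell from 9.86 and 9.54 to 8.19 and 7.97, with a log2 fold change of -1.62 ± 0.23 (adjusted p = 0.0158). TNS3 (tensin 3), which binds beta chain tails, had -0.94 ± 0.23 (adjusted p = 0.0652). For each of the 3 genes the FGF2 and -GFs arrays did not overlap. All 3 lost their call without FGF2 replicate 1 (adjusted p = 0.168, 0.107 and 0.168 in this order) or FGF2 replicate 2 (0.214, 0.151 and 0.336), ZYX also without -GFs replicate 2 (0.112), and TNS3 also without -GFs replicate 1 (0.187) or replicate 2 (0.109) and with neqc (0.108). With the block 9 were higher and 5 lower, 37.8% of those tested (37.7% of all genes). The balance turned with the normalisation, to 5 higher and 6 lower with median scaling and the block (37.5% of all genes), and was 5 and 3 with neqc and the block (32.1%). None of the 37 passed with BMP4 in either model, where 1 (1.81% of all genes) and, with the block, 5 (7.02% of all genes) had an unadjusted p under 0.05.

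The 5 genes whose log2 intensity followed ITGA5 most closely over the 6 arrays were EPS8 (Pearson r = 0.999), an adaptor of receptor tyrosine kinases and actin, 1600021P15RIK, BCL10, LOC100044177 and MAP3K6 (each 0.998). EPS8 had a log2 fold change of 1.5 with FGF2 (adjusted p = 0.0109) and MAP3K6 one of 1.26 (adjusted p = 0.0103). In all, 40 of 11871 other genes had an r over 0.99. The 6 arrays share their 3 treatments and 2 replicate numbers, and the FGF2 arrays are the high ones for these genes, so that these values are a description of the arrays.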

How the data were processed

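The authors deposited bead-averaged intensity values from Illumina mouse whole-genome BeadChips on a linear scale, not normalized between arrays, each with its detection p-value. The submitters' processing notes name GenomeStudio 2011.01. In addition, 9 columns of values without a heading and 6 leftover lines were not used.

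Intensities were normalized with a re-implemented cubic spline, as the study's methods name it (452 quantiles per array), and converted to log2. Retained probes numbered 16111, and a gene was represented by its retained probe with the largest mean. The 10 member symbols are current RefSeq symbols; 5 listed genes are on the array under other names. The 3 groups were fitted together (limma 3.58.1 in R 4.3.3, lmFit and eBayes, 6 arrays, no block, 3 residual degrees of freedom), with Benjamini-Hochberg adjustment over all genes or, for single probes, over all retained probes. Every adjusted p is limma's, and a gene is called to pass under 0.1. A bound ("at least") sets the mean of the group with signal against the higher of the lowest detected signal and the probe's own value in the other group. The fit without the block was tested on simulated data, with large changes added to the FGF2 arrays and independent noise on each array. Deviations shared by same-numbered arrays, the block, the detection filter and smaller changes were not simulated.

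Arrays are paired by replicate number according to the labels, and same-numbered arrays shared their deviations from the group means, with correlations across genes of 0.602 (-GFs and FGF2), 0.741 (-GFs and BMP4) and 0.579 (FGF2 and BMP4). Adding this block to the model leaves 2 residual degrees of freedom.

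The members and gene lists were chosen with earlier results of these data known. Genes named are all members and other subunits, listed genes that passed without the block with FGF2 or BMP4 (up to 8 per list by size of change), cell type markers detected on every array, the 5 genes most like ITGA5, and EGR1, DUSP6 and ID1. ID2, ID3, SPRY2, FN1, PTPRC, CD68, PECAM1 and CDH5 are named outside this rule, chosen after their values were seen. Alternatives were quantile, neqc (offset 16) and median scaling normalization, other detection filters, the mean of probes, eBayes with trend and robust, the replicate block, and each array left out. The replicate contrast was added after seeing the data.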

Additional observations from a re-analysis of the deposited data

How the results depend on the processing

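With 2 arrays per group the precision is limited by their number, and probes near background understate changes. The log2 fold change of ITGA5 with FGF2 stayed between 2.26 and 2.81 and passed in all alternatives (highest adjusted p = 0.0743, without FGF2 replicate 2), and that against BMP4 between 2.59 and 3 (highest adjusted p = 0.0616). Where an array was left out, the lone array of its group was assumed to vary like the other groups.

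The replicate block (paired analysis) raised the genes past an adjusted p of 0.1 from 1402 to 4478 for FGF2 against -GFs, from 1 to 26 for BMP4 against -GFs and from 1076 to 4049 for FGF2 against BMP4, and those also past a log2 fold change of 1 from 1 to 10 for BMP4. Members past with FGF2 went from 1 to 3, through ITGB1 (0.61) and ITGAV (0.34). With neqc and the block the counts were 3816 for FGF2, 1 for BMP4 (as without the block), 3239 for FGF2 against BMP4, 3 members for FGF2 (ITGB1 0.74, ITGAV 0.68) and 2 members for FGF2 against BMP4; genes also past the fold were 1143 and 987, against 794 and 640 with neqc alone and 419 and 365 with the spline. With median scaling and the block they were 4457, 37 (10 past the fold) and 3528, with 2 members for FGF2 (ITGB1 0.52). No detection filter and eBayes with trend and robust each gave 2 genes for BMP4 by either rule. For replicate 2 against replicate 1 members past went from 5 to 2 with neqc (ITGA5 0.4, ITGB1 -0.5 and ITGB5 -0.35 no longer passed). The block changed no other call of a member.

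Leaving out 1 array gave 103 to 1177 genes for FGF2, 0 to 2 for BMP4 and 93 to 1092 for FGF2 against BMP4, and, with the fold, 103 to 444, 0 to 2 and 93 to 387; fewer arrays enter these fits. Median scaling moved the split of calls for FGF2 from 716 higher and 686 lower to 502 and 910 (51.1% to 35.6% higher), and, with the fold, from 271 and 148 to 208 and 209.

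Members that did not pass turned sign in places. Leaving out 1 array, ITGA1 ranged from -0.11 to 0.56 with FGF2 and from -0.02 to 0.74 with BMP4, ITGA5 with BMP4 from -0.53 to 0.02, ITGA11 from -0.46 to 0.41 with FGF2 and from -0.37 to 0.5 with BMP4, and ITGB5 from -0.19 to 0.14 with FGF2 and from -0.17 to 0.17 with BMP4. ITGB1 kept its sign, from 0.28 to 0.94 with FGF2 and from 0.16 to 0.83 with BMP4. ITGA11 with BMP4 was also -0.03 with median scaling (with or without the block) and -0.15 as the mean of its probes, and ITGAV with BMP4 was 0 as the mean of its probes. The cause was not tested.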
